A study of Mus musculus with 8 samples.

Results

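The expression of 10 genes of fat cell differentiation and of the chemerin pathway was examined in cultured mouse tendon-derived stem cells (TSCs), out of 19301 genes in the table. The genes were chosen by symbol, with the difference between the culture media already known: the transcription factors Pparg, Cebpa and Cebpd, the differentiation products Fabp4, Adipoq, Plin1 and Lpl, the chemerin gene Rarres2, and the chemerin-binding receptors Cmklr1 and Ccrl2. Since they were selected on the comparison of medium with high glucose and palmitic acid (HFHG) with low glucose medium (LG), their levels and differences are given as a description, with no p-value. All 10 were found in the table.

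The study asked how a medium that imitates disturbed sugar and lipid metabolism changes TSCs, which are progenitor cells of the tendon. Primary TSCs came from the patellar tendon of C57BL/6J mice and were cultured for 4 days. The HFHG group received high glucose together with palmitic acid, a saturated fatty acid, and the LG group received low glucose with the solvent DMSO, both in DMEM with fetal bovine serum. Each group had 4 libraries, which the study calls biological replicates, and the number of animals behind them was not given, so p-values measure the spread between these samples. Glucose and palmitic acid were changed together, so their effects cannot be told apart.

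Fat cell differentiation starts with C/EBPβ and C/EBPδ, which switch on PPARγ and C/EBPα, and these then drive the genes of lipid uptake, lipid storage and secreted adipokines. Chemerin is one such adipokine, secreted as an inactive precursor that proteases trim at its C-terminus. The trimmed form attracts macrophages and other leukocytes through the receptor CMKLR1, and in preadipocytes the same pair takes part in differentiation.

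Levels are given as FPKM, the reads of a gene divided by its length and by the reads of the library, so that they can be compared between genes. The 8 libraries held between 34308108 and 37362725 reads, as recovered from the deposited values. Differences are given on the scale of log2(FPKM + 0.1), HFHG minus LG, so the change of a gene with low FPKM is understated. The standard error (SE) of a difference among the 10 genes comes from the spread of its own 4 and 4 libraries. One library stood apart. LG replicate 4 lay at 13.8 on the next principal component after the one that separated the groups, with the other 7 libraries between -7.93 and 2.49, and this component held 4.18% of the variance. The log2 differences of the 10 genes are therefore also given without this library.

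Of the 10 genes, 7 reached 0.5 FPKM in 4 or more of the 8 libraries and so entered the limma fit over 11710 genes, and Pparg, Adipoq and Plin1 did not. Cmklr1 was just inside this limit, with 4 libraries at 0.5 FPKM or more, and Pparg was the nearest outside it, with no library above 0.403 FPKM. In this fit, 4 of the 7 genes that entered were called higher in HFHG at an adjusted p-value below 0.05, where 34.0% of all tested genes were. Of the 7, 1 was called lower, where 30.8% of all tested genes were. The HFHG values of 4 genes all lay above the LG values (31.1% of tested genes), and those of 1 gene all lay below (28.1% of tested genes). By more than 2-fold and with an unadjusted p-value below 0.05, 2 of the genes were higher, beside 3.68% of tested genes (1.65% were lower by that rule). Without HFHG replicate 3, Cebpa was called higher too, which made 5. With a minimum of 1 FPKM, Ccrl2 fell below the limit and the number called lower was 0. Nothing follows from these counts, because the genes were selected on the same values.

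In HFHG the order of mean FPKM was Cebpd, Lpl, Fabp4, Rarres2, Cebpa, Ccrl2, Cmklr1, Pparg, Adipoq and Plin1. In LG it was Lpl, Cebpd, Fabp4, Cebpa, Rarres2, Ccrl2, Cmklr1, Pparg, Adipoq and Plin1. The libraries of neighbours overlapped in HFHG for Cebpd and Lpl, Ccrl2 and Cmklr1, Cmklr1 and Pparg, and Adipoq and Plin1, and in LG for Adipoq and Plin1. The 10 genes together took 0.127 to 0.128% of the reads of an HFHG library and 0.0935 to 0.0959% of those of an LG library.

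**Figure D1:**
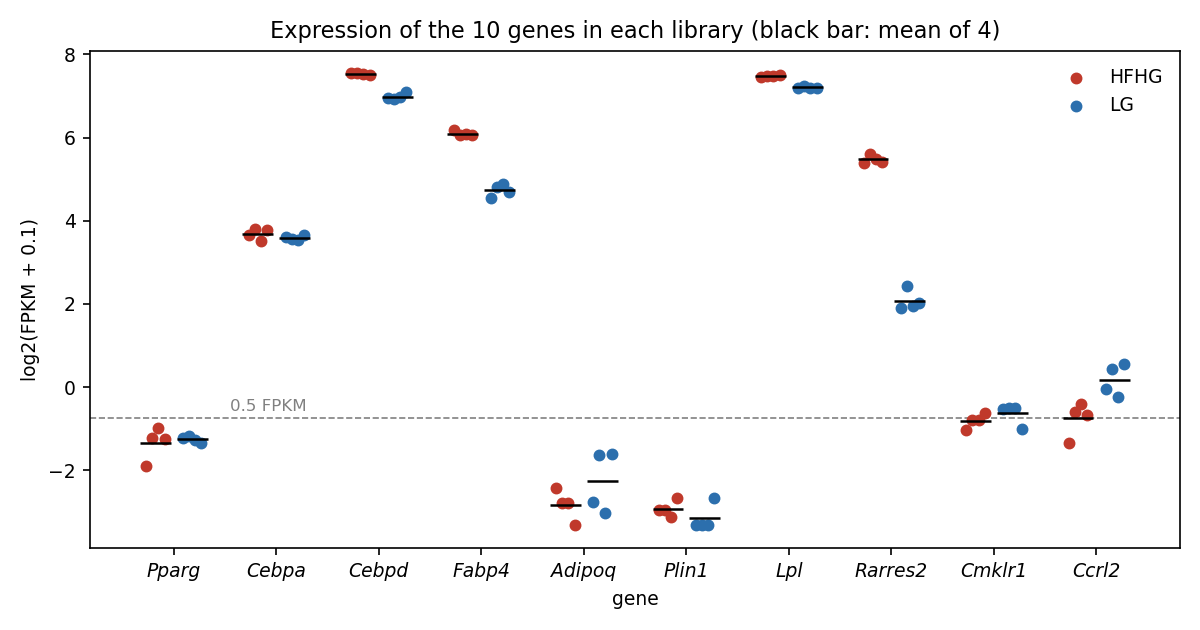
Expression of the 10 genes in each library as log2(FPKM + 0.1), with 1 point per library, a black bar for the mean of 4 libraries, HFHG in red and LG in blue; the dashed line marks 0.5 FPKM. Cebpd, Lpl, Fabp4 and Rarres2 have their HFHG points above their LG points, Ccrl2 has them below, and Pparg, Adipoq and Plin1 lie below the line in every library.

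Promoters in the RefSeq table (GRCm38.p6) were matched by symbol for 6 of the 10 genes, Pparg, Cebpa, Adipoq, Plin1, Cmklr1 and Ccrl2, with 10 start sites in all. Rarres2, Cebpd, Fabp4 and Lpl had no entry. The 250 bases before a start were searched on both strands for the C/EBP motif TTGCNNAA, the E-box CACGTG, the nuclear receptor hexamer AGGTCA and the CCAAT box CCAAT, which occurred in 9.56%, 6.02%, 14.0% and 33.8% of the 32851 windows of the table. Shown are the chemerin receptor genes Cmklr1 (a start inside the annotated gene) and Ccrl2 (its first listed start), which differ in their pattern, and Pparg (the third of its listed starts, inside the gene) and Adipoq, as a regulator and a product of fat cell differentiation that were low in both media. The lines run 5′ to 3′ on the strand of the gene, and capitals mark matches to any of the 4 motifs. The windows are chr5:113643604-113643853 (minus strand) for Cmklr1, chr9:111057519-111057768 (minus strand) for Ccrl2, chr6:115421816-115422065 (plus strand) for Pparg and chr16:23146286-23146535 (plus strand) for Adipoq.
Cmklr1: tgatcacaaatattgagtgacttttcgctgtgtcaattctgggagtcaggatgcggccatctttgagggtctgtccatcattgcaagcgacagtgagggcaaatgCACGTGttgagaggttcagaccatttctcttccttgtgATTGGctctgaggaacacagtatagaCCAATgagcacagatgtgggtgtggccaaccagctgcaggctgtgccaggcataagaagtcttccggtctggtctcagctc
Ccrl2: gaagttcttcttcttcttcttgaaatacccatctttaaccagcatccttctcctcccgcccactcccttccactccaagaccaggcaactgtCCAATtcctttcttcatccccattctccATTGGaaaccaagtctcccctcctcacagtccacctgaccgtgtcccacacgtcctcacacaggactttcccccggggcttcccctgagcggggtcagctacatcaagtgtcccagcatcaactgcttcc
Pparg: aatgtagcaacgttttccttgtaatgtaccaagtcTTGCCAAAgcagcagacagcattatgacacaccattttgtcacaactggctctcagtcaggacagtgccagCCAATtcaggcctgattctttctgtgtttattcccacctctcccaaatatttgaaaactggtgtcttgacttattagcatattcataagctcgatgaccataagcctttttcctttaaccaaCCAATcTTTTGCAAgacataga
Adipoq: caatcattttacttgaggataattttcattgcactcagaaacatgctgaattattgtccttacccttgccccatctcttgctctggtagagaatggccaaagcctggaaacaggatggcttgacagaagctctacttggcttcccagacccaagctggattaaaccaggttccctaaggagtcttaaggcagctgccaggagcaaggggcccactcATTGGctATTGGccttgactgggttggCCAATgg

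The Cmklr1 window held an E-box that begins 145 bases before the start and 2 CCAAT boxes, and the first of Ccrl2 held 2 CCAAT boxes. The Pparg window held 2 C/EBP matches, which begin 215 and 16 bases before the start, and 2 CCAAT boxes, and the other 2 windows of Pparg held 1 AGGTCA each, 1 of them with a CCAAT box. The Adipoq window held 3 CCAAT boxes and that of Plin1 held 2 C/EBP matches. The window of Cebpa and the other 2 windows of Ccrl2 held none of the 4 motifs. A match is a string of letters, and no binding was measured.

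Rarres2 encodes prochemerin, the ligand of the pathway. Its expression in the HFHG replicates 1 to 4 was 42.1, 48.7, 44.9 and 42.5 FPKM, and in the LG replicates 1 to 4 it was 3.66, 5.25, 3.77 and 3.96 FPKM. The groups lay far apart, and the LG libraries were more spread, with replicate 2 above the other 3 (coefficient of variation 6.81% in HFHG and 17.7% in LG). The means were 44.6 ± 3.04 and 4.16 ± 0.736 FPKM in HFHG and LG (SD, n = 4 each), a ratio of 10.7, and the log2 difference was 3.40 (SE 0.126). This rested on 5464 recovered reads in HFHG and 499 in LG, and without LG replicate 4 the log2 difference was 3.38. In the order of mean FPKM over all genes, Rarres2 held place 1509 in HFHG and place 7678 in LG. In bulk RNA, fewer cells of a type and less RNA per cell cannot be told apart.

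Rarres2 lies on chromosome 6 of GRCm38 (48569696 to 48572789, minus strand) and overlaps the coding gene Lrrc61 on the opposite strand. The libraries were stranded, but whether the counting used the strand is not given in the sources used here, so reads of such a pair could have been assigned to either gene. Lrrc61 was between 3.50 and 4.26 FPKM in the 8 libraries and was not called between the groups. Pparg, Cebpa and Cmklr1 are overlapped by the antisense genes Gm44079, Gm45091 and Gm15736, to which the same applies.

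Cmklr1 encodes the signalling chemerin receptor, known from macrophages, dendritic cells and fat cells. It was expressed at a low level, with 0.388, 0.480, 0.479 and 0.547 FPKM in the HFHG replicates 1 to 4 and 0.590, 0.611, 0.610 and 0.400 FPKM in the LG replicates 1 to 4. The groups overlapped through LG replicate 4 alone, which lay below 3 of the 4 HFHG libraries while the other LG libraries lay above all of them. The means were 0.473 ± 0.0651 and 0.553 ± 0.102 FPKM (SD, n = 4 each), with a log2 difference of -0.18 (SE 0.149). Without LG replicate 4 the LG mean was 0.604 ± 0.0116 FPKM (SD, n = 3) and the log2 difference -0.30. With each library left out in turn, the log2 difference lay between -0.30 and -0.10. The summed reads were 251 in HFHG and 286 in LG, and their ratio of 0.856, relative to library totals, had a 95% counting interval of 0.719 to 1.02, and without LG replicate 4 it was 0.783 with an interval of 0.653 to 0.940. Such intervals cover counting error only, not the spread between cultures. LG replicate 4 was the lowest library of its group, so leaving it out lowered the ratio by itself. Nothing therefore follows from the interval without it.

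Ccrl2 encodes an atypical receptor that binds chemerin and presents it to neighbouring cells without signalling itself. Its expression was 0.296, 0.565, 0.658 and 0.533 FPKM in the HFHG replicates 1 to 4 and 0.874, 1.25, 0.742 and 1.36 FPKM in the LG replicates 1 to 4. Each LG library was above each HFHG library, with a narrow gap between HFHG replicate 3 and LG replicate 3, and both groups were widely spread. The means were 0.513 ± 0.154 and 1.06 ± 0.294 FPKM (SD, n = 4 each), so that the LG mean was 2.06 times the HFHG mean, and the log2 difference was -0.92 (SE 0.278), or -0.79 without LG replicate 4. On the scale of log2(FPKM + 1) the difference was -0.44. With 141 reads in HFHG and 285 in LG, the ratio of LG to HFHG had a counting interval of 1.69 to 2.56. Gpr1, which encodes another chemerin-binding receptor, had 6 reads in HFHG and 7 in LG.

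Rarres2 was higher than both receptor genes in each medium, and the means of Cmklr1 and Ccrl2 lay between 0.473 and 1.06 FPKM in the 2 media. A further list held 7 genes, those of inhibitory G proteins and arrestins and the receptor gene Gpr1. Of these, 6 entered the fit, and Gpr1 did not, so none of the 6 encodes a chemerin receptor. In HFHG 4 of the 6 rose (66.7%, beside 34.0% of all tested genes). The median log2 difference was 0.24, beside 0.02 over all tested genes. Gnai1, an inhibitory G protein subunit, had the largest change, from 2.66 ± 0.383 to 7.98 ± 0.334 FPKM (SD, n = 4 each; log2 difference 1.56, limma adjusted p = 1.18e-08). Gnai2 was the most abundant at 268 ± 3.01 FPKM in HFHG and 235 ± 8.68 FPKM in LG (SD, n = 4 each; log2 difference 0.19, limma adjusted p = 4.38e-05). The arrestin gene Arrb1 also rose (log2 difference 0.36, limma adjusted p = 0.000520), while Gnai3 (-0.03, limma adjusted p = 0.474) and Arrb2 (0.09, limma adjusted p = 0.298) did not pass. The call of Gnao1 (0.29, limma adjusted p = 0.0267) was lost without HFHG replicate 1, HFHG replicate 2 or LG replicate 4, where the adjusted p was 0.0682, 0.0833 and 0.0649, and also without the limit on low FPKM (0.0533) and with quantile normalization (0.16).

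Several proteases can trim prochemerin, some to an active and some to an inactive form. Of 14 such genes in the table, 6 entered the fit, of which 1 rose (16.7%) and 4 fell (66.7%) in HFHG, beside 34.0% and 30.8% of all tested genes. The median log2 difference was -0.57, and over all tested genes it was 0.02. The gene that rose was Plat, tissue plasminogen activator, from 15.5 ± 1.02 to 82.4 ± 2.86 FPKM (SD, n = 4 each; log2 difference 2.41, limma adjusted p = 4.37e-13). The related urokinase gene Plau fell from 41.8 ± 1.70 to 24.2 ± 1.98 FPKM (SD, n = 4 each; log2 difference -0.79, limma adjusted p = 4.15e-08). Ctsk, the collagen-degrading cathepsin K, was 98.4 ± 2.36 FPKM in HFHG and 344 ± 11 FPKM in LG (SD, n = 4 each; log2 difference -1.80, limma adjusted p = 1.23e-13), and Ctsl, the most abundant of the list, was 911 ± 18.7 and 1163 ± 18.8 FPKM (SD, n = 4 each; log2 difference -0.35, limma adjusted p = 1.75e-08). Ctsg, a granule protease of leukocytes and mast cells, was low and also fell (log2 difference -0.81, limma adjusted p = 0.00151), and the chymase gene Cma1 did not pass (-0.18, limma adjusted p = 0.455). The other 8 genes, Plg, Elane, Klk7, Cpn1, Cpn2, Cpb2, F12 and F11, never exceeded 0.154 FPKM in a library. Plasminogen itself, the substrate of Plat and Plau, had 14 reads in HFHG and 10 in LG. Tpsab1 was not analysed here.

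Rarres2 takes its name from its response to retinoids. Of 12 genes known to respond to or handle retinoids, 9 entered the fit, and 3 were higher (33.3%) and 5 lower (55.6%) in HFHG, beside 34.0% and 30.8% of all tested genes (median log2 difference -0.14). Cyp26b1, which breaks down retinoic acid, rose (log2 difference 1.93, limma adjusted p = 6.33e-09), while the receptor gene Rarb (-1.81, limma adjusted p = 3.51e-07) and the binding protein gene Crabp2 (-1.42, limma adjusted p = 3.19e-11) fell. Their mean levels were 2.19 and 0.5 FPKM for Cyp26b1, 0.978 and 3.60 FPKM for Rarb and 8.56 and 23.0 FPKM for Crabp2 in HFHG and LG. Cyp26b1 entered the fit only through its HFHG libraries, since in LG (0.457 to 0.556 FPKM) only replicate 2 reached 0.5 FPKM. The most abundant of the list, the receptor gene Rarg, was 35.7 FPKM on average in each group and was not called (limma adjusted p = 0.985). The list therefore did not move in a single direction.

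Pparg encodes PPARγ, the factor without which fat cells do not form. Its expression was 0.166, 0.326, 0.403 and 0.324 FPKM in the HFHG replicates 1 to 4 and 0.328, 0.342, 0.317 and 0.291 FPKM in the LG replicates 1 to 4. HFHG replicates 1 and 3 were the lowest and the highest of the 8 libraries, and the LG values lay between them. The means were 0.305 ± 0.0993 and 0.319 ± 0.0216 FPKM (SD, n = 4 each), and the log2 difference was -0.09 (SE 0.201), which was -0.12 without LG replicate 4 and changed sign without HFHG replicate 1 (0.10). There were 149 reads in HFHG and 153 in LG, a ratio of 0.949 with a counting interval of 0.753 to 1.2. This interval includes a ratio of 1 and covers counting error only.

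Cebpa encodes C/EBPα, the partner of PPARγ in mature fat cells. Its expression was 12.5, 13.9, 11.4 and 13.7 FPKM in the HFHG replicates 1 to 4 and 12, 11.8, 11.4 and 12.6 FPKM in the LG replicates 1 to 4. HFHG replicates 2 and 4 were above the LG libraries, HFHG replicate 1 was among them and HFHG replicate 3 was the lowest of all. The means were 12.9 ± 1.16 and 12 ± 0.480 FPKM (SD, n = 4 each), and the log2 difference was 0.10 (SE 0.0717), 0.12 without LG replicate 4 and 0.16 without HFHG replicate 3. The lowest value with a single library left out was 0.06.

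Cebpd encodes C/EBPδ, an early factor that glucocorticoids induce. Its expression was 187, 186, 183 and 181 FPKM in the HFHG replicates 1 to 4 and 124, 122, 126 and 136 FPKM in the LG replicates 1 to 4. The groups did not overlap, the HFHG libraries were close together, and LG replicate 4 was the highest of its group. The means were 184 ± 2.61 and 127 ± 6.19 FPKM (SD, n = 4 each), a ratio of 1.45, and the log2 difference was 0.54 (SE 0.0360), 0.57 without LG replicate 4. Cebpd overlaps the coding gene Spidr on the opposite strand of chromosome 16 (15887286 to 15891031, plus strand), and Spidr was lower in HFHG, between 11.5 and 18.9 FPKM over the libraries.

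The other early factor, Cebpb, was the most abundant of 25 further adipogenic transcription factors and cofactors, with 193 ± 5.51 FPKM in HFHG and 211 ± 15.2 FPKM in LG (SD, n = 4 each). Its log2 difference was -0.13 (limma adjusted p = 0.0212), and this call was not stable. Without HFHG replicate 3 or 4, or with genes of low FPKM kept, the difference stayed at -0.11, -0.11 and -0.13. The limma adjusted p then came to 0.0578, 0.0543 and 0.0539. With quantile normalization the difference shrank to -0.03 (limma adjusted p = 0.415). So Cebpb and Cebpd stood at similar levels in HFHG, while the means of Cebpa (12.9 FPKM) and Pparg (0.305 FPKM) were much lower. Of the 25 factors, 21 entered the fit, 7 were higher (33.3%) and 6 lower (28.6%) in HFHG, close to the 34.0% and 30.8% of all tested genes, and the median log2 difference was 0.02. The largest changes were those of Klf15, a glucocorticoid-induced factor that activates Pparg, which fell from 2.37 ± 0.245 to 0.451 ± 0.0412 FPKM (SD, n = 4 each; log2 difference -2.16, limma adjusted p = 3.20e-09), of Zfp467, which rose (0.72, limma adjusted p = 1.86e-05), and of Klf5, which fell (-0.65, limma adjusted p = 8.39e-07). Klf15 entered the fit only through its LG libraries, since its HFHG libraries were at 0.402 to 0.496 FPKM.

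Other genes restrain fat cell differentiation. Of 24 such genes, 19 entered the fit, and 7 were higher and 7 lower in HFHG (36.8% each), close to the 34.0% and 30.8% of all tested genes; the median log2 difference was 0.02. Zfp521, among those higher, entered only through HFHG (0.505 to 0.548 FPKM). Trib3 and Ddit3, which block Akt and C/EBP factors and belong to the stress response, fell with log2 differences of -1.81 and -1.57 (limma adjusted p = 5.63e-12 and 2.46e-12). Ddit3 was 67.5 ± 3.20 FPKM in HFHG and 201 ± 7.52 FPKM in LG (SD, n = 4 each). Foxo1, a repressor of Pparg, rose from 4.33 ± 0.132 to 8.51 ± 0.248 FPKM (SD, n = 4 each; log2 difference 0.96, limma adjusted p = 3.55e-09). The most abundant of the list was Ctnnb1, the gene of β-catenin, which fell by 0.28 on the log2 scale (limma adjusted p = 1.22e-07) from a mean of 236 FPKM.

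**Figure D2:**
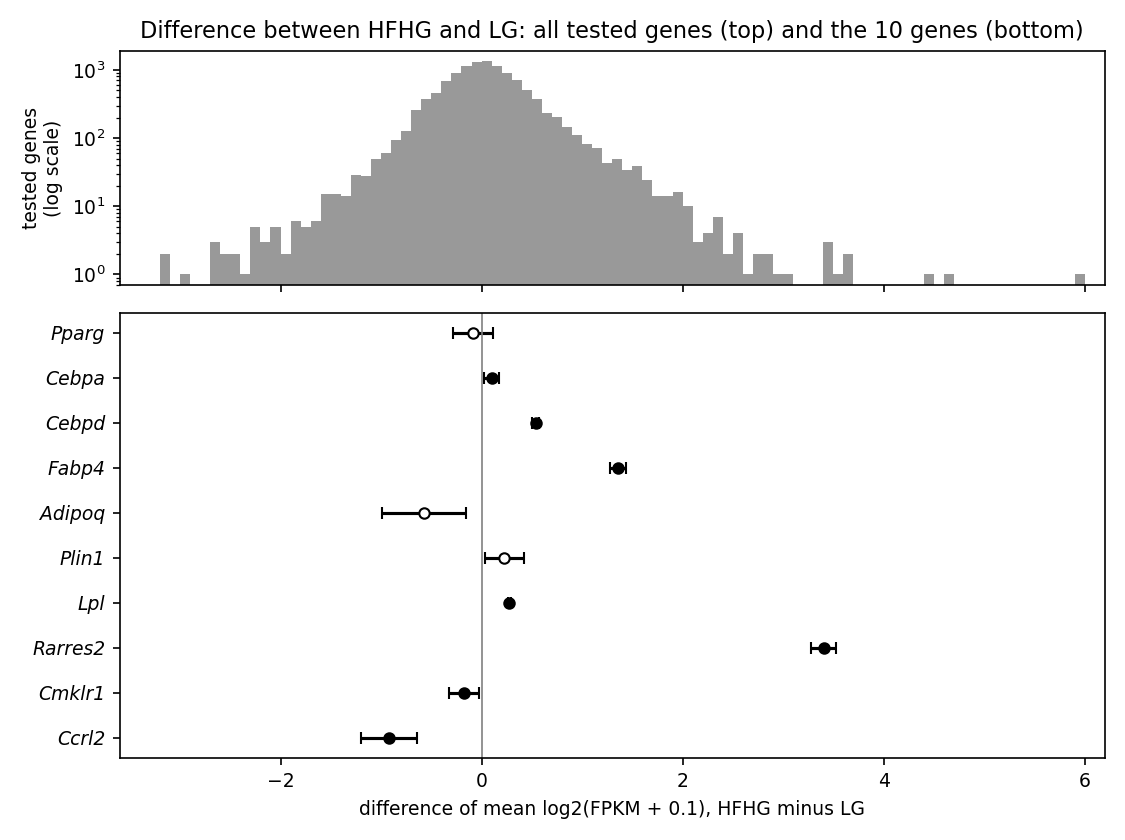
Difference of mean log2(FPKM + 0.1) between HFHG and LG, with the number of tested genes in bins of 0.1 on a log scale (top) and each of the 10 genes with its standard error (bottom; filled points entered the fit, open points did not). Rarres2 lies at 3.40, in the sparse right tail, Fabp4 at 1.36 and Ccrl2 at -0.92, while 90% of the 11710 tested genes lie between -0.65 and 0.86.

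Fabp4 encodes the fatty acid binding protein of fat cells, which macrophages and endothelial cells also make. Its expression was 72.8, 66.7, 67.6 and 66.3 FPKM in the HFHG replicates 1 to 4 and 23.3, 28, 29.3 and 25.9 FPKM in the LG replicates 1 to 4. The groups were well separated, with HFHG replicate 1 the highest and LG replicate 1 the lowest library. The means were 68.4 ± 3.03 and 26.6 ± 2.61 FPKM (SD, n = 4 each), a ratio of 2.57, and the log2 difference was 1.36 (SE 0.0781), or 1.35 without LG replicate 4. The reads behind it were 8635 in HFHG and 3284 in LG.

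Lpl encodes lipoprotein lipase, the secreted enzyme that frees fatty acids from lipoproteins. Its expression was 176, 177, 179 and 183 FPKM in the HFHG replicates 1 to 4 and 147, 152, 147 and 145 FPKM in the LG replicates 1 to 4. The groups did not overlap, and the spread within them was under 2% of the mean in both. The means were 179 ± 2.91 and 148 ± 2.74 FPKM (SD, n = 4 each), a ratio of 1.21, and the log2 difference was 0.28 (SE 0.0177), or 0.27 without LG replicate 4. Lpl was thus the most abundant of the 10 genes in LG and stood beside Cebpd in HFHG.

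Other proteins fold, carry or inhibit the lipase. Of 10 such genes in the table, 7 entered the fit, and 2 were higher (28.6%) and 4 lower (57.1%) in HFHG, beside 34.0% and 30.8% of all tested genes (median log2 difference -0.21). Angptl4, a secreted inhibitor of the lipase that fatty acids induce, rose from 90.1 ± 3.74 to 264 ± 2.03 FPKM (SD, n = 4 each; log2 difference 1.55, limma adjusted p = 3.39e-13). Lmf1, which the lipase needs to mature, fell from 16.8 ± 1.01 to 11 ± 0.635 FPKM (SD, n = 4 each; log2 difference -0.61, limma adjusted p = 6.06e-07), and the receptor gene Vldlr fell as well (-0.51, limma adjusted p = 1.55e-07). The most abundant of the list, Lrp1, was 196 ± 8.2 and 227 ± 23.5 FPKM in HFHG and LG (SD, n = 4 each; log2 difference -0.21, limma adjusted p = 0.0110), and its call was lost with quantile normalization (adjusted p = 0.136). Gpihbp1, which holds the lipase on capillaries, had 1 read in HFHG and 5 in LG. Apoc1, Apoc2, Apoc3 and Apoa5 were not analysed here.

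Adipoq encodes adiponectin, an adipokine of mature fat cells. It had 4, 2, 2 and 0 reads in the HFHG replicates 1 to 4 and 2, 10, 1 and 10 reads in the LG replicates 1 to 4. LG replicates 2 and 4 held most of the reads, and the other libraries of both groups overlapped. This was 0.0869, 0.0459, 0.0451 and 0 FPKM in HFHG and 0.0473, 0.224, 0.0229 and 0.228 FPKM in LG, and 3 reads, the limit that a count of 0 allows, would be 0.0666 FPKM in HFHG replicate 4. The log2 difference was -0.57 (SE 0.416), or -0.35 without LG replicate 4. The sums of 8 and 23 reads gave a ratio of LG to HFHG of 2.95 with a counting interval of 1.27 to 7.63, which does not include the spread between the LG libraries. Without LG replicate 4 the ratio of HFHG to LG was 0.449, with an interval of 0.161 to 1.17.

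Plin1 encodes the coat protein of the fat cell lipid droplet. It had 2, 2, 1 and 4 reads in the HFHG replicates 1 to 4 and 0, 0, 0 and 4 in the LG replicates 1 to 4, or 0.0279, 0.0295, 0.0145 and 0.0571 FPKM against 0, 0, 0 and 0.0587 FPKM. The reads of LG came from replicate 4 alone, and the groups overlapped through it. In LG replicates 1 to 3 a count of 0 allows up to 0.0456, 0.0431 and 0.0442 FPKM. The log2 difference was 0.23 (SE 0.192), or 0.39 without LG replicate 4. The sums of 9 and 4 reads gave a ratio of 2.19 with a counting interval of 0.612 to 9.75. Without LG replicate 4 there were 9 reads against 0. That library held every LG read, so leaving it out fixed the count at 0. Nothing therefore follows from the lower bound of 1.44 for this ratio.

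The receptors and assembly factors of adiponectin were expressed, though the hormone gene had few reads. Of 6 genes, all 6 entered the fit, with 3 higher (50%) and 2 lower (33.3%) in HFHG, beside 34.0% and 30.8% of all tested genes, and a median log2 difference of 0.16. The receptor gene Adipor1 was 81.2 ± 0.651 and 78.9 ± 1.59 FPKM in HFHG and LG (SD, n = 4 each) and was not called (log2 difference 0.04, limma adjusted p = 0.146), though it was without LG replicate 4 (0.06, adjusted p = 0.0395) and with quantile normalization (0.10, adjusted p = 0.00182). Adipor2 rose from 38.0 ± 0.833 to 46.1 ± 0.5 FPKM (SD, n = 4 each; log2 difference 0.28, limma adjusted p = 1.69e-06), and the gene of the binding partner T-cadherin, Cdh13, rose too (0.59, limma adjusted p = 4.21e-07). Among the genes of adiponectin assembly in the endoplasmic reticulum, Ero1a fell from 588 ± 23.2 to 203 ± 1.38 FPKM (SD, n = 4 each; log2 difference -1.53, limma adjusted p = 2.68e-13), Erp44 fell (-0.23, limma adjusted p = 8.85e-05) and Gstk1 rose (0.58, limma adjusted p = 0.000921).

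Other genes of mature fat cells were split by level. Of 27 genes in the table, 10 entered the fit and 17 did not, and among those 17 the highest value in any library was 0.558 FPKM (Plin4). In 10 of the 17, which included Lep, Retn, Cidec and Adig, the 8 libraries together held at most 20 reads. Lep, the leptin gene, had 3 reads in HFHG and 1 in LG, and Cidec, of large lipid droplets, had 6 and 0. Of the 10 that entered the fit, 6 were higher (60%) and 2 lower (20%) in HFHG, beside 34.0% and 30.8% of all tested genes (median log2 difference 0.21). The lower genes were Fasn, of fatty acid synthesis (-0.39, limma adjusted p = 8.36e-06), and Agpat2, of triglyceride synthesis (-0.18, limma adjusted p = 0.00409). The largest changes were in Lipe, hormone-sensitive lipase, from 1.44 ± 0.0895 to 3.92 ± 0.252 FPKM (SD, n = 4 each; log2 difference 1.38, limma adjusted p = 8.80e-09), in the fatty acid carrier gene Cd36, from 5.24 ± 0.276 to 11.7 ± 0.487 FPKM (SD, n = 4 each; 1.14, limma adjusted p = 1.24e-09), and in Dgat2, which makes triglyceride, from 9.27 ± 0.451 to 19.7 ± 0.786 FPKM (SD, n = 4 each; 1.08, limma adjusted p = 5.86e-10). The most abundant, the desaturase gene Scd1, rose slightly (0.17, limma adjusted p = 0.00172). Cfd was not analysed here.

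Fatty acids induce further genes through PPARs in many cell types. Of 16, 13 entered the fit, and 11 were higher (84.6%) and 2 lower (15.4%) in HFHG, beside 34.0% and 30.8% of all tested genes, with a median log2 difference of 0.44. The lower genes encode 2 other fatty acid binding proteins, Fabp3 (-0.95, limma adjusted p = 8.06e-08) and Fabp5 (-0.27, limma adjusted p = 3.19e-06). The list also held the receptor genes Ppara, which did not enter, and Ppard. Ppard was among the higher genes, at 26.2 FPKM in HFHG and 24.3 FPKM in LG, with overlapping groups. Pdk4, a kinase that restrains glucose oxidation, was 49.1 ± 0.467 FPKM in HFHG and 1.86 ± 0.170 FPKM in LG (SD, n = 4 each; log2 difference 4.65, limma adjusted p = 2.25e-14), and Ucp2 rose by 1.59 (limma adjusted p = 2.70e-10). Plin2, the droplet coat protein found in most cells, was the most abundant, at 541 ± 7.91 FPKM in HFHG and 302 ± 6.47 FPKM in LG (SD, n = 4 each; log2 difference 0.84, limma adjusted p = 6.87e-12). Its level set it apart from Plin1, which was at most 0.0587 FPKM in a library.

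Markers of fat cell progenitors were also listed. All 15 entered the fit, 14 of them were higher in HFHG (93.3%, beside 34.0% of all tested genes), and the median log2 difference was 0.80. Pi16 entered only through HFHG (0.536 to 0.822 FPKM). The marker that was not called was Dpp4, which was named after its value was seen, with 0.811 FPKM in HFHG and 0.882 FPKM in LG (limma adjusted p = 0.424). Cd55 rose from 3.70 ± 0.287 to 11.8 ± 0.396 FPKM (SD, n = 4 each; log2 difference 1.64, limma adjusted p = 1.37e-10), Cd34 by 1.44 (limma adjusted p = 1.09e-10) and the growth factor receptor gene Pdgfra by 1.2 (limma adjusted p = 2.19e-11). F3, which encodes tissue factor and was the most abundant, rose from 416 ± 8.45 to 787 ± 8.05 FPKM (SD, n = 4 each; log2 difference 0.92, limma adjusted p = 2.09e-12). These genes also mark fibroblasts of other tissues.

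**Figure D3:**
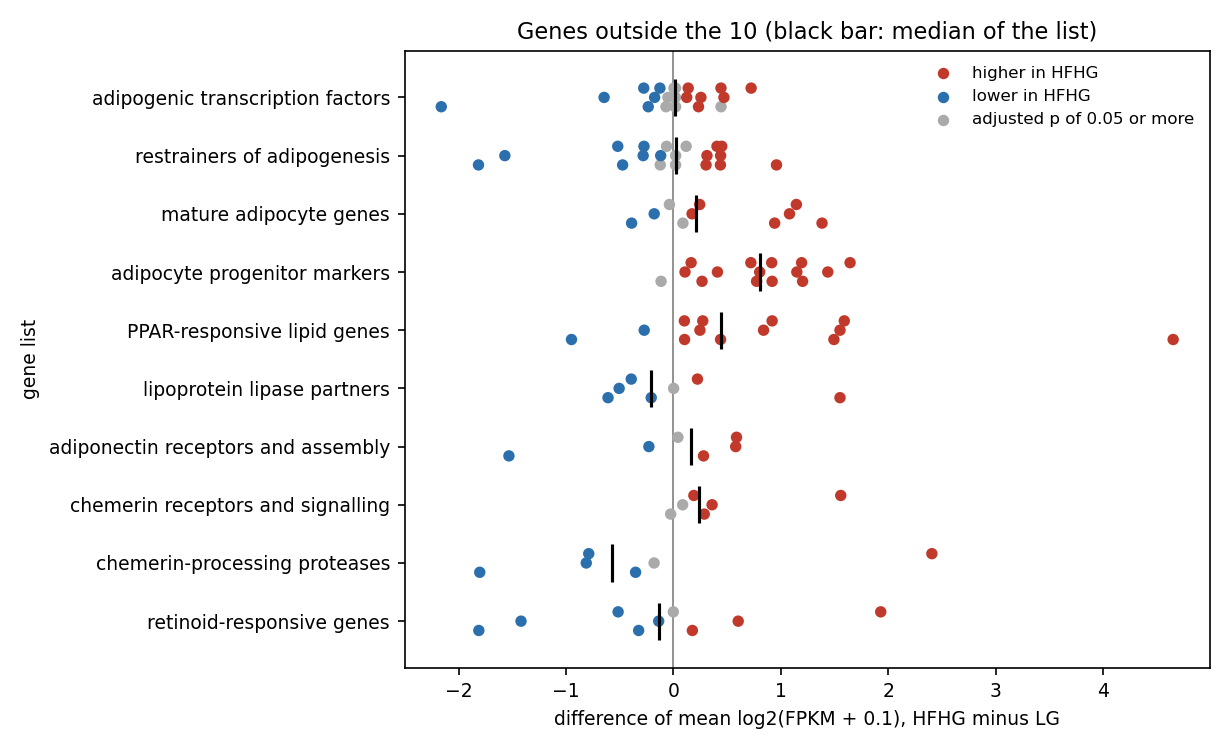
Difference of mean log2(FPKM + 0.1), HFHG minus LG, for genes outside the 10, with 1 point per gene that entered the fit, in red or blue where it was higher or lower in HFHG at an adjusted p-value below 0.05 and in grey otherwise; black bars are medians of lists. The progenitor markers and the PPAR-responsive genes lie mostly to the right (medians 0.80 and 0.44), the transcription factors and the restrainers lie on both sides (0.02 each) and the proteases mostly to the left (-0.57).

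Over the 10 lists of adipogenic, chemerin and retinoid genes together, 155 genes outside the original 10 were in the table and 111 entered the fit. Of these, 57 were higher (51.4%) and 32 lower (28.8%) in HFHG, beside 34.0% and 30.8% of all tested genes, and the median log2 difference was 0.12 beside 0.02. The largest shares higher were those of the progenitor markers (93.3% higher, 0% lower) and the PPAR-responsive genes (84.6% higher, 15.4% lower). No test was made for a list. The lists were chosen with earlier results of these data known, so nothing about a list follows from these shares. The p-values of list genes carry the same limit. In each called list gene named here other than Egfl7, Lrp1, Scx and Ppard, all 4 HFHG libraries lay on the same side of all 4 LG libraries.

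Markers of other cells were read beside these genes, since macrophages express CMKLR1, CCRL2, lipoprotein lipase and FABP4. Of 17 macrophage and leukocyte markers, 12 entered the fit, 10 were lower in HFHG (83.3%, beside 30.8% of all tested genes), Cd14 was higher (8.33%, beside 34.0%) and Ptprc was not called. Lyz2 was the most abundant, with 1637 ± 19.4 FPKM in HFHG and 1765 ± 32.6 FPKM in LG (SD, n = 4 each; log2 difference -0.11, limma adjusted p = 0.000440), and the summed level of the list was 1871, 1846, 1838 and 1823 FPKM in the HFHG replicates 1 to 4 and 2016, 2034, 2057 and 2107 FPKM in the LG replicates 1 to 4. With quantile normalization the difference of Lyz2 was 0.00616 and no longer called (adjusted p = 0.642), and Lyz2 makes up most of the sum. C1qa, Mrc1 and Itgam had the largest changes, with log2 differences of -0.97, -0.86 and -0.69 (limma adjusted p = 2.58e-09, 2.35e-07 and 9.51e-09). Cd3e of T cells and Ncr1 of natural killer cells were at 0 in the 4 HFHG libraries and had 6 and 3 reads in LG. Macrophage markers were thus measurable in a culture labelled as TSCs, and most of those that entered the fit were lower in HFHG. This was the direction of Ccrl2 and opposite to that of Fabp4 and Lpl, while the groups of Cmklr1 overlapped. The part of macrophages in the values of these genes was not tested.

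Endothelial cells can also express FABP4. Of 10 endothelial markers, 3 entered the fit, with 2 higher (66.7%) and 1 lower (33.3%) in HFHG, beside 34.0% and 30.8% of all tested genes, and the summed level was 5.42 to 6.65 FPKM in HFHG and 4.75 to 6.12 FPKM in LG. The defining markers Pecam1 and Cdh5 had 74 and 51 reads in HFHG and 51 and 88 in LG. Egfl7, the most abundant, was 3.98 ± 0.557 and 3.15 ± 0.551 FPKM (SD, n = 4 each; log2 difference 0.34, limma adjusted p = 0.0320), and its call was lost without HFHG replicate 1 or 3 or LG replicate 3 or 4 (adjusted p = 0.101, 0.0680, 0.0939 and 0.0614), with low genes kept (0.0753), and with median-ratio scaling (0.0510) or quantile normalization (0.105). Tek rose (0.47, limma adjusted p = 0.00576; 0.0565 with quantile normalization) and Vwf fell (-1.2, limma adjusted p = 1.79e-06), both near or below 1 FPKM. Vwf entered the fit only through its LG libraries, its HFHG libraries being at 0.358 to 0.418 FPKM.

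The markers of the labelled cells were present, at very unlike levels. All 12 tendon cell markers entered the fit, 9 were higher (75%) and 2 lower (16.7%) in HFHG, beside 34.0% and 30.8% of all tested genes, and their summed level was 4408 to 4458 FPKM in HFHG and 3135 to 3173 FPKM in LG. Col1a1, Thbs4 and Tnc had the largest changes (log2 differences 1.36, 1.14 and 1.06, limma adjusted p = 1.95e-13, 5.34e-13 and 1.38e-11), and Bgn was the most abundant at 1671 ± 15.0 and 1390 ± 30.4 FPKM (SD, n = 4 each; 0.27, limma adjusted p = 1.72e-07). Bgn alone made up 1671 of 4427 FPKM of the sum in HFHG and 1390 of 3151 FPKM in LG on average. The tendon markers Scx and Tnmd were low. Scx was 2.27 ± 0.558 and 1.45 ± 0.336 FPKM in HFHG and LG (SD, n = 4 each), with overlapping groups. Tnmd was 1.10 ± 0.0908 and 0.614 ± 0.298 FPKM (SD, n = 4 each). The 2 that fell were the transcription factor genes Mkx (-0.35, limma adjusted p = 0.000749) and Egr1 (-0.40, limma adjusted p = 3.80e-06). Of 5 surface markers of tendon stem cells, 3 were higher (60%) and 2 lower (40%), beside 34.0% and 30.8% of all tested genes, and Itgb1, the most abundant, fell by 0.25 (limma adjusted p = 3.91e-07; 0.0897 with quantile normalization). Nt5e, Thy1 and Eng rose by 0.68, 0.60 and 0.50 (limma adjusted p = 4.44e-08, 2.87e-10 and 4.56e-08).

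**Figure D4:**
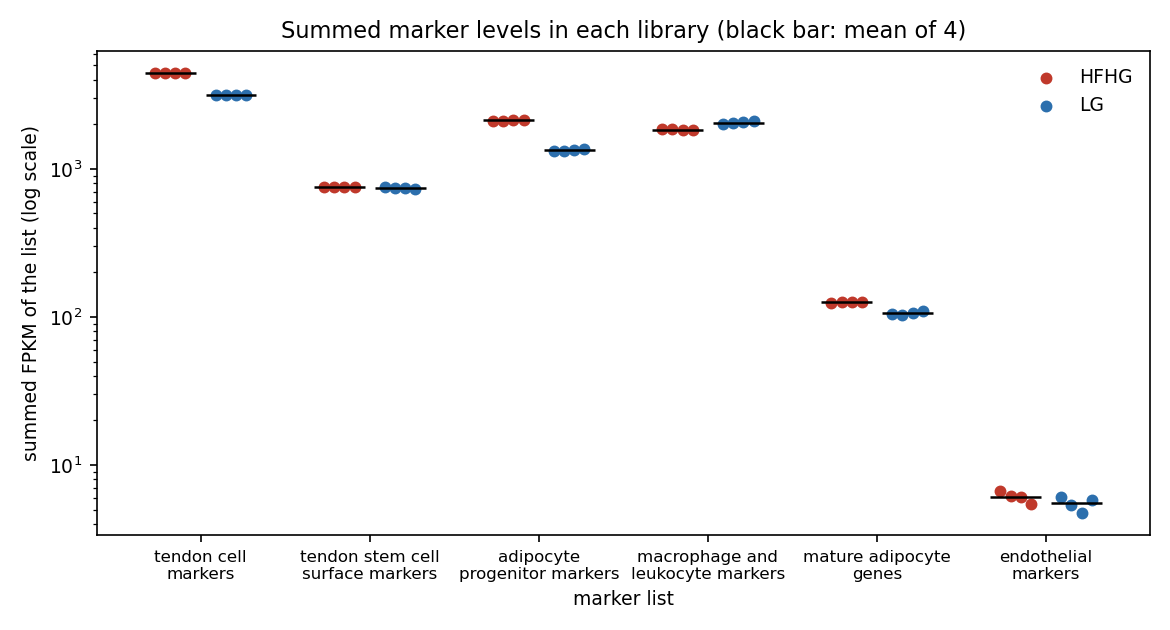
Summed FPKM of 6 marker lists in each library on a log scale, with 1 point per library and a black bar for the mean of 4, HFHG in red and LG in blue. Tendon cell and progenitor markers are higher in HFHG, the sum of macrophage and leukocyte markers, most of it Lyz2 (1637 of 1844 FPKM in HFHG and 1765 of 2053 FPKM in LG on average), is lower (1823 to 1871 against 2016 to 2107 FPKM), and endothelial markers stay below 6.65 FPKM.

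For each of the 7 genes that entered the fit, the 3 genes with the most similar pattern were sought among those with a mean of at least 1 FPKM, by the root mean square difference of centred log2 values over the 8 libraries. Rarres2 was nearest to Aldh1a1 (0.181), which encodes a retinaldehyde dehydrogenase, and then to Cilp (0.203) and Dkk2 (0.224). Aldh1a1 was 51.2 ± 1.05 FPKM in HFHG and 4.56 ± 0.303 FPKM in LG (SD, n = 4 each), a log2 difference of 3.46. Fabp4 was nearest to the chemokine gene Cxcl3 (0.0658), to Btg2 (0.0703) and to Cavin2 (0.0810), a gene of caveolae. Cebpd was nearest to Lmna (0.0151), Cd81 (0.0207) and Cyb5r3 (0.0219), and Lpl to Csnk1a1 (0.0168), Fstl1 (0.0173) and Gng12 (0.0193). Cebpa was nearest to Cfap410 (0.0400), Mme (0.0481) and Naa60 (0.0483).

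The low receptor genes had other neighbours. Cmklr1 was nearest to Tango6 (0.0495), Vps13c (0.0719) and Ago2 (0.0793), and in Tango6 and Vps13c the lowest LG library was again replicate 4, at 1.62 and 4.71 FPKM. Ccrl2 was nearest to Gm13212 (0.236), Fbln7 (0.251) and Trim29 (0.265), at a larger distance than the neighbours of the other genes. The neighbours were chosen for their pattern, so their differences are no separate result.

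Some terms of the deposited annotation restate how the genes were chosen. Brown fat cell differentiation and positive regulation of fat cell differentiation were each listed for 5 of the 10 genes, out of 38 and 53 genes in the table with the term, and inflammatory response for 4 of the 10, out of 335. Rarres2 carries all of these. Negative regulation of DNA-templated transcription was listed for 5 of the 10 (Pparg, Cebpa, Cebpd, Fabp4 and Adipoq), out of 528. Chemotaxis was listed for Rarres2, Cmklr1 and Ccrl2, out of 123 genes. The KEGG pathway of PPAR signaling held 5 of the 10 (Pparg, Fabp4, Adipoq, Plin1 and Lpl), out of 82. The genes are spread over chromosomes 3, 5, 6, 7, 8, 9 and 16, with Pparg and Rarres2 on chromosome 6, Cebpa and Plin1 on 7, and Cebpd and Adipoq on 16.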

How the data were processed

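The mRNA of 8 cultures of mouse TSCs, 4 in HFHG and 4 in LG, had been sequenced as stranded libraries, grouped here by the sample labels. The study's results section gives 25.5 mM glucose with 300 µM palmitic acid for HFHG and 5.5 mM glucose for LG. The authors deposited FPKM for 19301 genes. The submitters' processing notes name HISAT2 2.1.0 and mm10; the counting program, the annotation and any filter are not given in the sources used here. The 10 genes and the gene lists were chosen with earlier results of these data known.

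Whole reads were recovered from the FPKM (19301 of 19301 genes within 0.01 read). Genes at 0.5 FPKM or more in at least 4 libraries were fitted on log2(FPKM + 0.1) with limma 3.58.1 in R 4.3.3 (lmFit, eBayes with trend, no covariates), with Benjamini-Hochberg adjustment over 11710 genes. The scripts were tested on simulated data. Intervals of read ratios are exact conditional 95% intervals. The variance between replicates was 3.45 to 11.9 times the counting variance, highest in pairs with LG replicate 4. Positions came from GENCODE M21 (GRCm38).

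Named from each list are the 3 called genes with the largest difference and the most abundant gene, and any gene of the chemerin, protease and adiponectin lists. Other list genes named were chosen after their values were seen. The fit was repeated with pseudocounts of 1 and 0.01, with all genes kept, with a minimum of 1 FPKM, after median-ratio scaling, after quantile normalization, with a block for the replicate number, by voom on the recovered reads, and without each library.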

Additional observations from a re-analysis of the deposited data

Results flagged for a closer look

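In 106 quantities (the 10 genes, the summed lists and the named genes), each group of 4 was searched for a library far from the other 3, and 18 of 212 groups held one. Chance flags about 1 in 20 groups. In 10 of the 18 the library was LG replicate 4, but the quantities are not independent: Tango6 and Vps13c were chosen for their likeness to Cmklr1, and the lipoprotein lipase partners include Lrp1. It was the lowest LG library for Cmklr1 (0.400 FPKM, the others 0.590 to 0.611), Tango6 (1.62 FPKM), Vps13c (4.71 FPKM), Lrp1 (192 FPKM, the others 233 to 241), Itgb1 (467 FPKM) and the summed lipoprotein lipase partners (476 FPKM, the others 517 to 520). It was the highest for Plin1 (0.0587 FPKM against 0 in the others), Angptl4 (95.6 FPKM, the others 87.7 to 88.7), Bgn (1436 FPKM) and the summed chemerin-processing proteases (1606 FPKM, the others 1550 to 1559).

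In HFHG, replicate 1 was the highest library for Angptl4 (267 FPKM, the others 263) and Foxo1 (8.87 FPKM) and the lowest for Gm13212 (0.650 FPKM). Replicate 4 was the highest for Gstk1 (13.7 FPKM), and replicate 3 had no read of Gpr1 (0 FPKM). In LG, replicate 2 was the highest for Ctsg (1.88 FPKM, the others 1.02 to 1.16), replicate 1 was the highest for Pdgfra (9.99 FPKM), and replicate 3 was the lowest for Cilp (0.331 FPKM).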

How the results depend on the processing

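The log2 difference of Rarres2 was 3.15 with a pseudocount of 1 and that of Ccrl2 was -0.44. Adipoq and Plin1, with few reads, moved to -1.28 and 1.29 with a pseudocount of 0.01 and to -1.26 and 1.52 with voom. Over the settings that kept all libraries, Adipoq ranged from -1.28 to -0.11 and Plin1 from 0.03 to 1.52. Pparg ranged from -0.28 to -0.02 and Cmklr1 from -0.36 to -0.07. Scaling moved Cebpd to 0.60 (quantile normalization) and Lpl to 0.24 (median-ratio scaling) or 0.31 (quantile normalization), and shifted the median of all genes by -0.04 in both. Of the called genes 52.5% were higher; with median-ratio scaling and quantile normalization it was 46.7% and 47.4%, so lower calls became the majority.

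With a pseudocount of 1, the genes higher by over 2-fold numbered 197 in place of 431, and those lower 106 in place of 193, since it shrinks the differences of low genes. The counts at an adjusted p-value below 0.05 stayed within 1.5 times under all alternatives (3548 to 4286 higher, 3432 to 4053 lower), as did those of the 111 other adipogenic and chemerin genes (50 to 62 higher, 29 to 33 lower). Of 81 named genes outside the 10, calls changed for 12 under at least 1 setting: 6 were lost, 5 gained, and Lyz2 changed sign to 0.00616 with quantile normalization (adjusted p = 0.642). Of 448 counts of called genes in single lists, 11 moved by over 1.5 times. Endothelial markers higher numbered 1 in place of 2 with low genes kept, with a minimum of 1 FPKM, with median-ratio scaling and without HFHG replicate 1 or 3 or LG replicate 3 or 4, and 0 with quantile normalization; those lower numbered 0 in place of 1 with a minimum of 1 FPKM. Lipoprotein lipase partners higher numbered 4 in place of 2 with low genes kept, and surface markers lower 1 in place of 2 with quantile normalization. The cause was not tested.

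The replicate numbers did not pair the samples: the deviations of same-numbered libraries correlated between -0.0736 and -0.00558, and no library correlated best with its own number. With the replicate number as a block, 3841 genes were higher and 3501 lower, 431 and 194 by over 2-fold, and 56 and 32 of the other adipogenic and chemerin genes.

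Depth limits Pparg, Adipoq, Plin1, Cmklr1 and Ccrl2, which had 4 to 286 reads per group.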
